A study of Mus musculus with 6 samples.

Results

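The interferon response and MHC class I genes described here are 43 genes of mouse somatosensory cortex: the sensors that start an interferon response, the receptor and transcription regulators that carry it, genes that interferon induces, and the machinery of class I antigen presentation. They were chosen by name, as the non-control probes whose gene name in the scanner files equals 1 of the 43 names, and 54 of 55681 probes stood for these 43 of 35513 genes. Of the 43 genes, 42 passed the filter on dim probes and were tested, among 32696 tested genes in all.

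RNA was measured in primary somatosensory cortex (S1, the cortical area that receives touch) of C57BL/6 mice at postnatal day 7, on 1 single-colour array per sample. The cKO group held 3 samples of genotype Lhx2f/f;Nex-Cre, and the control group held 3 samples of genotype Lhx2f/f, titled WT in the labels, so both groups carry the floxed Lhx2 alleles. Nex-Cre is expressed from the Neurod6 (Nex) locus in young excitatory neurons of the cortex, and glia, vessels and immune cells are not its known targets. The deleted gene, Lhx2, codes for a transcription factor of the LIM-homeodomain class. Whether a sample is 1 animal or a pool is not stated in the labels, so the p-values cover the spread among these 6 samples, which may be technical in part.

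Interferons are secreted proteins that cells release after sensing viral or misplaced nucleic acid. The type I interferon receptor activates a complex that includes STAT2 and IRF9 and binds the interferon-stimulated response element in the promoters of interferon-induced genes. MHC class I molecules display peptides cut by the proteasome and carried into the endoplasmic reticulum by the TAP transporter. In brain, a low tonic interferon signal maintains basal expression of many of these genes, microglia and vascular cells express several of them, and class I molecules are also made by neurons.

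The upstream sequence of 7 members is shown because these letters are where the interferon-activated factors can bind, and the 7 cover members that were lower, higher and near equal in the results. Promoter sequences came from a RefSeq table on GRCm38.p6, in which 37 of the 43 members were found, with 42 start sites. The searched window was the 250 bases before the annotated start, on both strands. The motifs were the interferon-stimulated response element (ISRE, GAAANNGAAA, or TTTCNNTTTC on the other strand), a shorter IRF core (GAANNGAAA, or TTTCNNTTC) and the GAS element of interferon-gamma signalling (TTCNNNGAA, which reads the same on both strands). Capitals mark every match to any of the 3, and overlapping matches run together.
Isg15, chr4:156200819-156201068, minus strand: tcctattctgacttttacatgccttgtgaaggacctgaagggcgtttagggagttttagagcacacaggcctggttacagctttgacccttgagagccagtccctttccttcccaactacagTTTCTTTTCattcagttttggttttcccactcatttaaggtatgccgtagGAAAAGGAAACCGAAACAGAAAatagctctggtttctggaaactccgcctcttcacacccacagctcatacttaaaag
Ifit3, chr19:34583279-34583528, plus strand: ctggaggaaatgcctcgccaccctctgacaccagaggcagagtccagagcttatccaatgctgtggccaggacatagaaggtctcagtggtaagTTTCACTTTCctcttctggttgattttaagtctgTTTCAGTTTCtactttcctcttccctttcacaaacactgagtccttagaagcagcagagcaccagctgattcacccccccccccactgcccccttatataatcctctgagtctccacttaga
Oas3, chr5:120777660-120777909, minus strand: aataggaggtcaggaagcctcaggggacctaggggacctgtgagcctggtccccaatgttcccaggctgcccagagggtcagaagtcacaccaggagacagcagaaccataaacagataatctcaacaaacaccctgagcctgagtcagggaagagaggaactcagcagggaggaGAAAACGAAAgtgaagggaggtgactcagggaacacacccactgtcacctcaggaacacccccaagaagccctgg
Irgm1, chr11:48871421-48871670, minus strand: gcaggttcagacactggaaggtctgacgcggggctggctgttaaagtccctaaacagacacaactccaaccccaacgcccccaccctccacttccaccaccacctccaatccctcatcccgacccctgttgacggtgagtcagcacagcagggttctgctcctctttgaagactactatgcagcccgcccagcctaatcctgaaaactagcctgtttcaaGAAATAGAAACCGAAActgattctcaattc
B2m, chr2:122147437-122147686, plus strand: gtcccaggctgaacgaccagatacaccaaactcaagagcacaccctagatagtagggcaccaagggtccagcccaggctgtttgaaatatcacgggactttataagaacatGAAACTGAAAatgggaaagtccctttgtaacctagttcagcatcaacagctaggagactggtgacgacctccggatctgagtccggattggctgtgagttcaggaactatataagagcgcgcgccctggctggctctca
H2-K1, chr17:34000334-34000583, minus strand: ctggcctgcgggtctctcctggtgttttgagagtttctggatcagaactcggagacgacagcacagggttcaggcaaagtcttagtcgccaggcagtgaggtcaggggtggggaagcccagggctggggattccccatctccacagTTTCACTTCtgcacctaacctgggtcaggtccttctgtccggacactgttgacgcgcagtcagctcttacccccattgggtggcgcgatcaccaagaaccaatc
Irf1, chr11:53769764-53770013, plus strand: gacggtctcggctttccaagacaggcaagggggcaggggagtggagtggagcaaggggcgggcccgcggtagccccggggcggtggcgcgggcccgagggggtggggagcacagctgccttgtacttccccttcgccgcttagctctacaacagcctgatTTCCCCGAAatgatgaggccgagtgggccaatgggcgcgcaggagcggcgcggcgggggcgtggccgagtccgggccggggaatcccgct

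An ISRE match was present before at least 1 start of 16 of the 37 members found (43.2%), against 978 of all 32851 promoters in the table (2.98%). The members were gathered as interferon-responsive genes, so this share describes the choice of genes. Isg15 held 3 overlapping ISRE matches, whose first bases lie 78, 72 and 66 bases before the start, and an IRF core at 128. Ifit3 held 2 at 156 and 122 bases, Irgm1 held 2 at 30 and 24, B2m held 1 at 139 and Oas3 held 1 at 75. H2-K1 had no ISRE match but an IRF core at 104, and Irf1 had a GAS match at 90. The IRF core was found in 8 of 37 members (21.6%) and 6.31% of all promoters, and the GAS element in 7 of 37 (18.9%) and 7.02%. The windows of Tap1 and Psmb9, which are transcribed away from each other, share 225 of their 250 bases. A match is a run of letters and is not read as a binding site.

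Values below are log2 signals relative to the 75th percentile of each array, so 0 is a bright probe and -6 is close to background. The lowest signal counted as well above background lay between -7.16 and -5.80 on the 6 arrays. Differences are arrays labelled cKO minus control on this log2 scale. Signals of different probes are not compared, since probes bind with different strength. Probe positions are given on mm9, as in the scanner files; no annotation of that build was used here, so the exon or UTR a probe lies in is not stated. The groups were compared with limma over all 32696 genes, two-sided, and p was adjusted by Benjamini-Hochberg with a threshold of 0.05.

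Across the arrays, between 86.7% and 91.1% of the spots were well above background, 0 spots were saturated, and the 75th percentile ranged from 889 to 1064 intensity units. All 6 arrays were on 1 slide. The control arrays and cKO array 1 lay in slide column 1, and cKO arrays 2 and 3 lay in column 2. Slide column and group are thus partly confounded, and the part of slide column in the differences was not tested. The Lhx2 probe averaged 4.59 ± 0.17 on the arrays labelled cKO and 3.48 ± 0.04 on the control arrays (SD, n = 3 each), 2.15-fold higher in the arrays labelled cKO (adjusted p = 0.0742, limma). That direction is opposite to a loss of transcript, and the sources do not state which part of the gene is deleted, so the probe does not check the labels and the groups are called by them. Neurod6, whose locus carries Nex-Cre, was also higher on the arrays labelled cKO. It averaged 2.5 ± 0.20 there and 2.13 ± 0.12 on the control arrays (SD, n = 3 each), without overlap. The difference was 0.38 (unadjusted p = 0.0232, adjusted p = 0.529, limma), and this probe does not check the labels either. Were the labels exchanged, every direction given here would turn. Y-linked genes gave signal on control arrays 1 and 3 and on no other array, so sex and group are partly confounded. Of 9 excitatory-neuron markers of cortex, 9 were well above background on all 6 arrays. Between the groups, 2 of them were lower and 2 higher at an unadjusted p under 0.05, against 4.34% and 3.21% of all genes. Their differences ran from -0.91 (Emx1) to 0.33 (Tbr1), so the median of -0.02 does not mean that the markers were unchanged. In a bulk sample, fewer cells of a type and less RNA per cell cannot be told apart, which applies to every value below.

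Of the 42 tested members, 0 passed the adjusted threshold, in a comparison where 2 of 32696 genes passed it (0.00612%). The lowest adjusted p of a member was 0.243, for Irgm1. At an unadjusted p under 0.05, 11 members were lower and 1 was higher in the arrays labelled cKO, against 4.34% of all genes lower and 3.21% higher. The 11 are Irgm1, Oasl2, Psmb9, Xaf1, H2-K1, Mx2, B2m, Ifitm3, Mx1, Ifit3 and Irf1, and the 1 is Oas3. By sign alone 34 members were lower and 8 higher, against 44% of all genes with a difference below 0. The median difference of the members was -0.17, against 0.02 for all genes. In 14 members every array labelled cKO lay below every control array, against 6.19% of all genes, and in 1 member every such array lay above, against 7.15% of all genes. These are counts of genes measured in the same 6 samples, and the genes are not independent replicates.

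**Figure D1:**
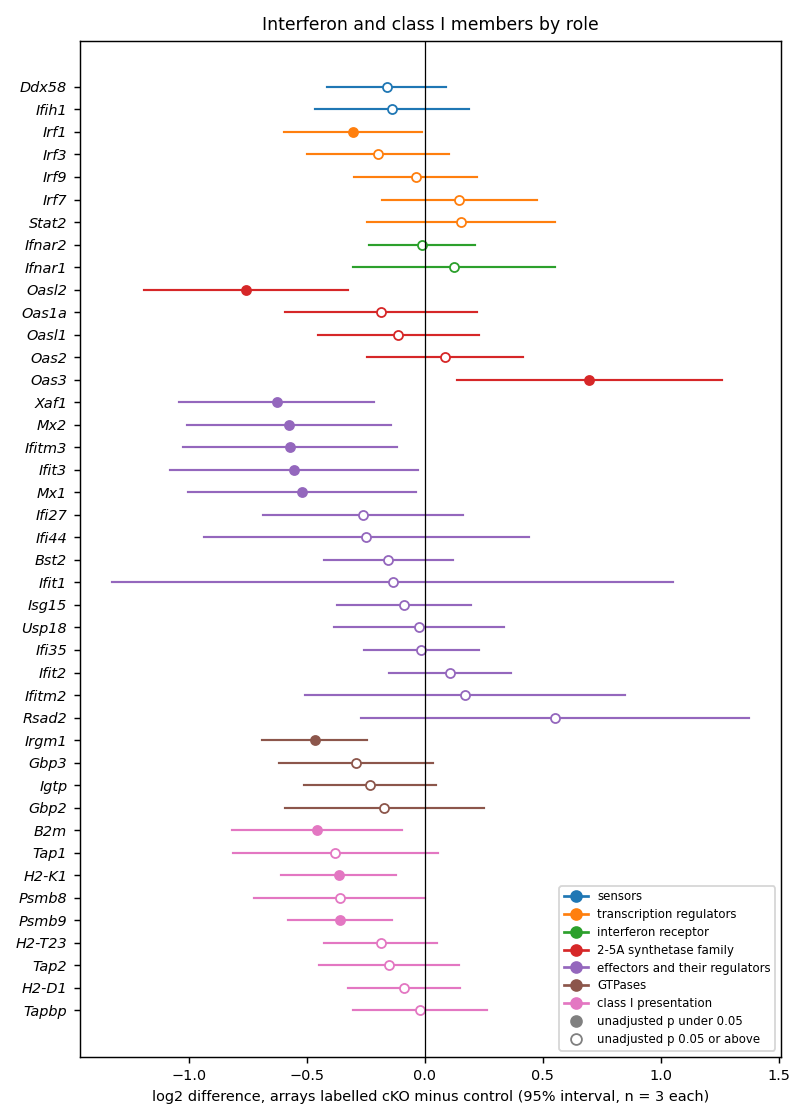
Log2 difference of each tested member (arrays labelled cKO minus control, x axis) with its 95% confidence interval from limma, grouped by role, n = 3 arrays each. Filled points have an unadjusted p under 0.05: 11 lie below 0 and 1, Oas3, lies above, and 0 pass after adjustment.

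The count rests on few arrays. It was 11 lower with all arrays, and 14, 7 and 6 without cKO arrays 1, 2 and 3 in turn. It was 7, 7 and 9 without control arrays 1, 2 and 3 in turn. The share of all genes lower at that p lay between 3.50% and 4.79% in these fits, against 4.34% with all arrays. With a term for Y-linked signal the count was 3 (Ifitm3, Irgm1 and Oasl2), where 2.04% of all genes were lower at that p, against 4.34% without the term. That term leaves control array 2 as the only control array that sets the difference. The members' median of -0.19 in that fit is therefore against control array 2 alone. Leaving out the 2 control arrays with such signal gives the same median by construction, so it is not a second check. Slide row 1 held cKO array 2 and control array 1, and slide row 2 held cKO array 3 and control array 2. Each pair shares a row but sets column 2 against column 1. Its difference therefore cannot separate group from column. Differences within these pairs are given below for their size; their direction is fixed where the groups do not overlap.

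The sensors were Ifih1 (MDA5) and Ddx58 (RIG-I), cytoplasmic helicases that detect viral double-stranded RNA. Both were tested and neither passed. Ddx58 had -1.68, -1.54 and -1.39 on the arrays labelled cKO, against -1.39, -1.30 and -1.44 on the control arrays, a difference of -0.16 (95% interval -0.42 to 0.09). A dimmer second Ddx58 probe differed by -0.26. Ifih1 differed by -0.14 (95% interval -0.47 to 0.19), and its groups overlapped as well.

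The receptor for type I interferon is a pair of chains, Ifnar1 and Ifnar2, and both were measured on all 6 arrays. Ifnar2 had 0.71, 0.71 and 0.75 on the arrays labelled cKO, against 0.87, 0.66 and 0.68 on the control arrays. The difference was -0.01, with a 95% interval of -0.24 to 0.21. Ifnar1 differed by 0.12 (95% interval -0.30 to 0.55), and its other 2 probes by 0.18 and 0.03.

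Of the 5 transcription regulators, Irf1 alone had an unadjusted p under 0.05 and was lower, against 4.34% of all genes lower at that p. Irf1, a factor induced mainly by interferon-gamma, had -0.81, -1.03 and -0.81 on the arrays labelled cKO, against -0.63, -0.72 and -0.38 on the control arrays. The groups did not overlap, and the difference was -0.30 ± 0.12 (SE; unadjusted p = 0.0444, adjusted p = 0.639). A dimmer second Irf1 probe differed by -0.14. Irf3, the latent factor that the sensors activate, differed by -0.20, and Irf9, the DNA-binding part of the STAT complex, by -0.04.

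Irf7, which amplifies the response and is itself strongly induced by interferon, had -3.76, -4.09 and -4.19 on the arrays labelled cKO, against -4.19, -4.26 and -4.03 on the control arrays. Its groups overlapped, with a difference of 0.15 (95% interval -0.18 to 0.48). Stat2 differed by 0.15 (95% interval -0.25 to 0.55), with the lowest of its 6 values, 0.59, on cKO array 1 and the highest, 1.17, on cKO array 2. The median of the 5 regulators was -0.04.

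The 2-5A synthetase family makes the short 2′-5′ oligoadenylates that switch on the RNA-degrading enzyme RNase L, although Oasl1 and Oasl2 are family members better known for other antiviral roles. The 5 members pointed in different directions. Oasl2 (probe at chr5:115362168-115362227) had -4.46, -4.46 and -3.83 on the arrays labelled cKO, against -3.54, -3.42 and -3.52 on the control arrays. The groups did not overlap, and Oasl2 was 1.69-fold lower (difference -0.76 ± 0.18 SE, unadjusted p = 0.00452, adjusted p = 0.314, limma). It was the only member whose unadjusted p stayed under 0.05 under all 21 alternative ways of processing, with a difference between -0.97 and -0.35. The smallest of these came with normexp background correction, which adds an offset and compresses dim probes.

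Oas3 went the other way. Its probe at chr5:121203598-121203657 had -3.81, -3.07 and -3.87 on the arrays labelled cKO, against -4.54, -4.13 and -4.18 on the control arrays. The groups did not overlap, and Oas3 was 1.62-fold higher (difference 0.70 ± 0.24 SE, unadjusted p = 0.0222, adjusted p = 0.519). The excess was 1.47 on slide row 1 and 0.26 on slide row 2, and over the alternatives it lay between 0.34 and 0.84.

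Oas1a differed by -0.18 on its brighter probe and by -0.78 on its second probe, so the probes disagree in size. Oas1 genes are a cluster of close copies, and a probe of 1 copy may bind others, which was not tested. Oasl1 differed by -0.11 and Oas2 by 0.09. The median of the 5 was -0.11, and it was above 0 with normexp correction scaled to the 75th percentile (0.00197) and without cKO array 3 (0.02).

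**Figure D2:**
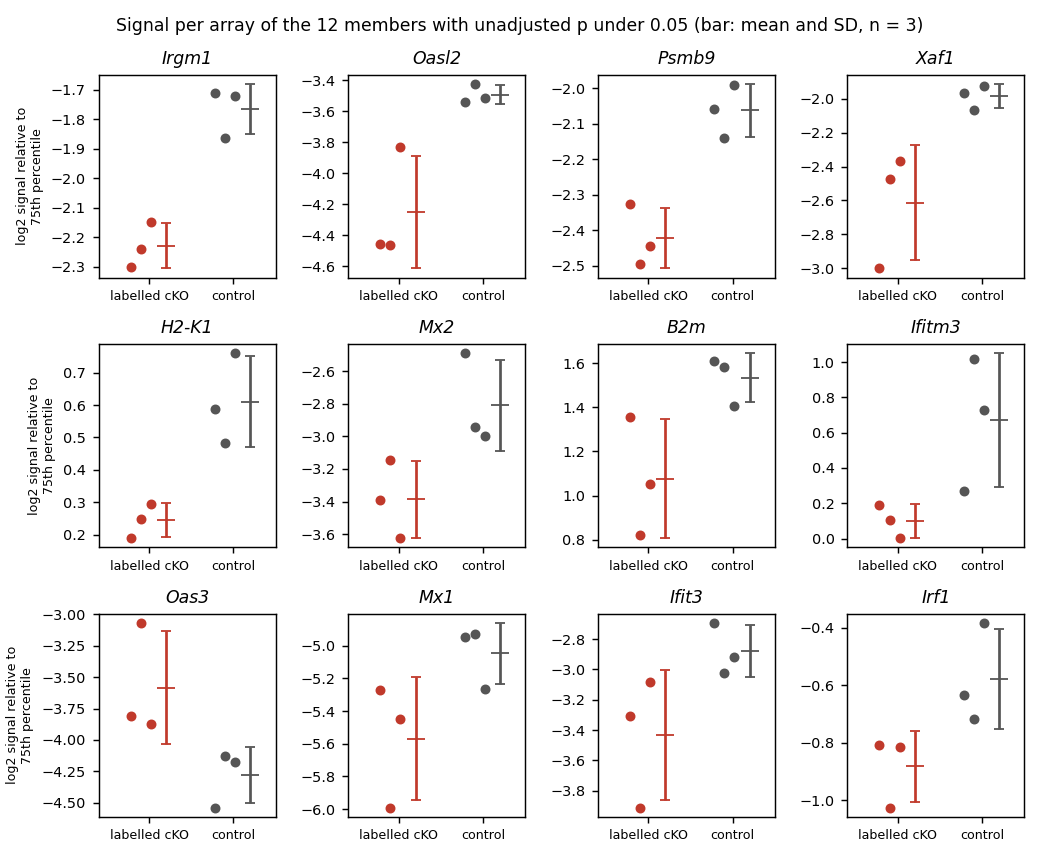
Log2 signal relative to the 75th percentile on each array (y axis, own scale per gene) for the 12 members with an unadjusted p under 0.05, with mean and SD of 3 arrays. The arrays labelled cKO are on the left and the control arrays on the right, and the groups do not overlap in any of the 12.

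Interferon-induced effectors and regulators were the largest role, with 15 members, all tested. Of these, 5 were lower at an unadjusted p under 0.05 and 0 higher, against 4.34% and 3.21% of all genes. By sign 12 were lower, against 44% of all genes. The median was -0.15, or -0.08 either with normexp correction or without cKO array 2. The 5 were Xaf1, Mx2, Ifitm3, Mx1 and Ifit3, and they differ in brightness and in which arrays were lowest.

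Xaf1, a partner of the apoptosis inhibitor XIAP (probe at chr11:72127175-72127234), had -3.0, -2.48 and -2.37 on the arrays labelled cKO, against -1.97, -2.07 and -1.93 on the control arrays. The control arrays lay close together and cKO array 1 was lowest, with a difference of -0.63 ± 0.17 (SE; unadjusted p = 0.0091, adjusted p = 0.384). Its dimmer second probe differed by -0.23.

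Mx1 and Mx2 are dynamin-like GTPases that block viral replication, and C57BL/6 mice carry a defective Mx1 gene. Mx2 (probe at chr16:97782327-97782386) had -3.39, -3.15 and -3.62 on the arrays labelled cKO, against -2.49, -2.94 and -3.0 on the control arrays. The difference was -0.58 ± 0.18 (SE; unadjusted p = 0.0162, adjusted p = 0.475), and the groups did not overlap. Mx1 had -5.27, -5.99 and -5.45 on the arrays labelled cKO, against -4.95, -4.93 and -5.26 on the control arrays. It was well above background on 2 arrays labelled cKO and 3 control arrays, so its difference of -0.52 (unadjusted p = 0.0381, adjusted p = 0.609) rests on signals near the detection limit. With normexp correction the Mx1 difference lay nearer 0, the nearest value being -0.11.

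Ifitm3, which holds viruses in endosomes (probe at chr7:148195591-148195650), was a bright probe with 0.19, 0.11 and 0.00315 on the arrays labelled cKO, against 0.27, 1.02 and 0.73 on the control arrays. Control array 1 lay just above the arrays labelled cKO, and the arrays labelled cKO spread less (SD 0.09) than the control arrays (SD 0.38). The difference was -0.57 ± 0.19 (SE; unadjusted p = 0.0212, adjusted p = 0.51). Its neighbour in the same gene cluster, Ifitm2, differed by 0.17 with overlapping groups (95% interval -0.51 to 0.85).

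The Ifit genes encode proteins that bind viral RNA, and the 3 tested here gave unlike values. Ifit3 (probe at chr19:34663105-34663164) had -3.31, -3.91 and -3.08 on the arrays labelled cKO, against -2.69, -3.02 and -2.92 on the control arrays, a difference of -0.56 ± 0.22 (SE; unadjusted p = 0.0411, adjusted p = 0.626). The pair on slide row 1 differed by -1.22 and the pair on row 2 by -0.06. Ifit2 had -1.84, -1.82 and -1.54 on the arrays labelled cKO, against -1.83, -1.85 and -1.85 on the control arrays, a difference of 0.11. Ifit1 spread from -4.55 on cKO array 1 to -6.73 on cKO array 2, which left its difference of -0.14 with a 95% interval of -1.33 to 1.05. Ifit3b, named because it is a close copy of Ifit3, differed by 0.16.

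Isg15, a ubiquitin-like modifier, had -0.68, -0.64 and -0.37 on the arrays labelled cKO, against -0.58, -0.36 and -0.49 on the control arrays. Its difference was -0.09 (95% interval -0.37 to 0.20), and its second, dimmer probe differed by -0.20. Usp18, the protease that removes ISG15 and dampens receptor signalling, differed by -0.02 (95% interval -0.38 to 0.34).

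Rsad2 (viperin), an antiviral enzyme, had -3.63, -4.00 and -4.53 on the arrays labelled cKO, against -4.96, -3.91 and -4.95 on the control arrays. Control array 2 lay among the arrays labelled cKO, and the difference of 0.55 had a 95% interval of -0.27 to 1.38. Against control array 2 alone it was -0.15. Bst2 (tetherin), which holds budding viruses at the cell surface, differed by -0.15, Ifi27 by -0.26, Ifi44 by -0.25 and Ifi35 by -0.01. Ifi44, like Ifit1 and Mx1, was well above background on 2 arrays labelled cKO and 3 control arrays.

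The interferon-induced GTPases that attack vacuoles holding pathogens were lower by sign in 4 of 4 members, against 44% of all genes, with a median of -0.26. Of the 4, 1 was lower at an unadjusted p under 0.05, against 4.34% of all genes. Irgm1, a regulator of the family (probe at chr11:48679069-48679128), had -2.30, -2.24 and -2.15 on the arrays labelled cKO, against -1.71, -1.86 and -1.72 on the control arrays. Replicates lay close together in both groups, and Irgm1 was 1.38-fold lower (difference -0.47 ± 0.09 SE, 95% interval -0.69 to -0.24, unadjusted p = 0.00179, adjusted p = 0.243). Its second probe differed by -0.58. The pair on slide row 1 differed by -0.53 and the pair on row 2 by -0.29.

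Gbp3 had -2.41, -2.06 and -2.03 on the arrays labelled cKO, against -1.72, -1.95 and -1.97 on the control arrays, and the groups did not overlap. Its difference of -0.29 had an unadjusted p of 0.0737. Igtp (Irgm3) differed by -0.23 (unadjusted p = 0.0908), also without overlap, and Gbp2 by -0.17 with overlap. Among the members close to an unadjusted p of 0.05, Irf1 (0.0444) and Ifit3 (0.0411) lay just inside it, and Psmb8 (0.0505) and Gbp3 (0.0737) just outside.

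Class I antigen presentation was lower by sign in 9 of 9 members, against 44% of all genes. Of the 9, 3 were lower at an unadjusted p under 0.05 (4.34% of all genes) and 4 without overlap between the groups (6.19% of all genes). The median difference of the 9 was -0.36. B2m, H2-K1 and Psmb9 were the 3, that is, the shared light chain, a heavy chain and an immunoproteasome subunit. The median was -0.18 with normexp correction, -0.23 without cKO array 2 and -0.24 with a term for Y-linked signal, and with that term 0 of the 9 had an unadjusted p under 0.05.

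B2m, the light chain that every classical class I molecule needs (probe at chr2:121978401-121978460), had 1.36, 0.82 and 1.05 on the arrays labelled cKO, against 1.61, 1.58 and 1.41 on the control arrays. B2m was 1.37-fold lower (difference -0.46 ± 0.15 SE, unadjusted p = 0.0205, adjusted p = 0.507), and its 2 row pairs differed by -0.79 and -0.53. H2-K1, a classical heavy chain (probe at chr17:34133055-34133114), had 0.19, 0.25 and 0.30 on the arrays labelled cKO, against 0.59, 0.48 and 0.76 on the control arrays. H2-K1 was 1.29-fold lower (difference -0.37 ± 0.10 SE, unadjusted p = 0.00995, adjusted p = 0.398), and its second probe differed by -0.16.

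H2-D1, the other classical heavy chain of this strain, had 1.07, 0.90 and 1.07 on the arrays labelled cKO, against 1.14, 0.99 and 1.17 on the control arrays. The groups overlapped, and the difference was -0.09 with a 95% interval of -0.33 to 0.15. Whether H2-K1 and H2-D1 differ from each other was not tested. Class I heavy chains are near-identical over long stretches, so a probe of 1 may bind another. H2-T23 (Qa-1), a non-classical heavy chain that is read by natural killer cells, differed by -0.19 (unadjusted p = 0.108) without overlap between the groups.

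Psmb9 and Psmb8 are immunoproteasome subunits, which replace constitutive ones after interferon. Psmb9 (probe at chr17:34319174-34319233) had -2.33, -2.49 and -2.44 on the arrays labelled cKO, against -2.06, -2.14 and -1.99 on the control arrays, a difference of -0.36 ± 0.09 (SE; unadjusted p = 0.00677, adjusted p = 0.351). Psmb8 had -2.34, -2.88 and -2.62 on the arrays labelled cKO, against -2.19, -2.19 and -2.38 on the control arrays, and differed by the same -0.36 with wider spread (unadjusted p = 0.0505). Psmb9 was lower on every array labelled cKO, while cKO array 1 of Psmb8 lay above control array 3.

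Tap1 and Tap2 form the peptide transporter. Tap1 had -4.86, -5.46 and -5.27 on the arrays labelled cKO, against -4.96, -4.92 and -4.57 on the control arrays, a difference of -0.38 (95% interval -0.81 to 0.06). Tap2 differed by -0.15. Tapbp (tapasin), which holds class I molecules at the transporter, differed by -0.02 (95% interval -0.30 to 0.26).

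**Figure D3:**
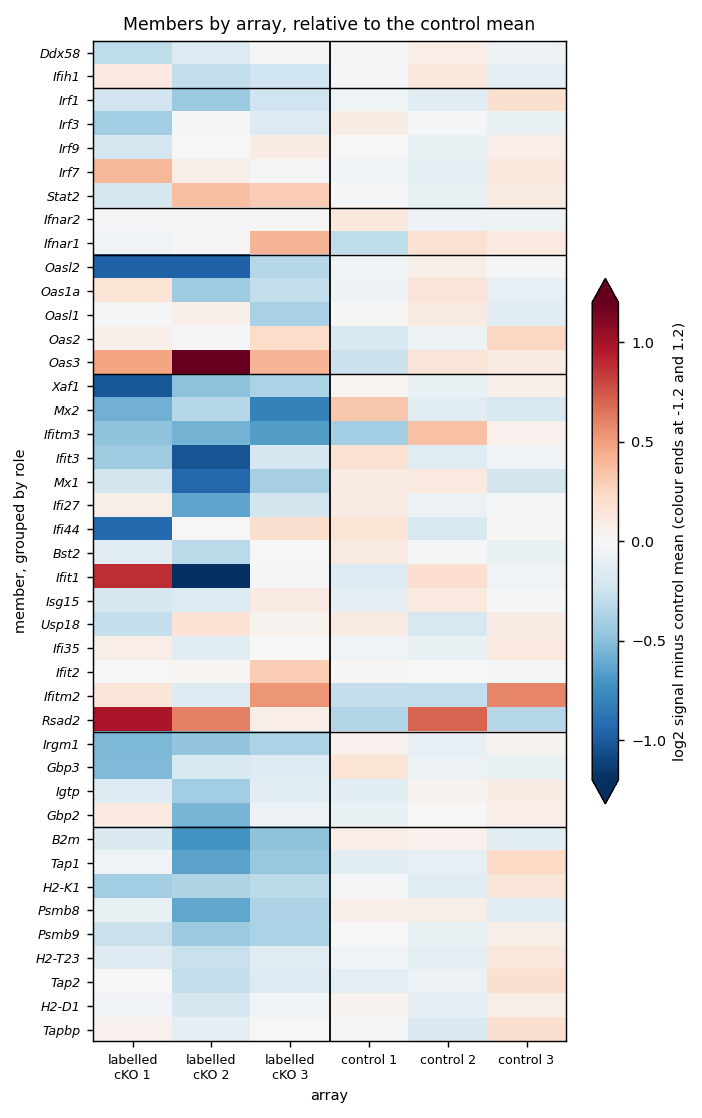
Log2 signal of the 42 tested members (rows, grouped by role) on the 6 arrays (columns) minus the mean of the control arrays, with the arrays labelled cKO on the left. Class I members and GTPases are mostly below the control mean on cKO array 2, where the 9 class I members had a median of -0.36, and Oas3 and Rsad2 are above it on the arrays labelled cKO.

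Cxcl10, the chemokine that attracts T cells and is among the first genes induced, was not tested. Its brighter probe was well above background on 1 array labelled cKO and 1 control array. It read -4.19, -7.97 and -6.77 on the arrays labelled cKO, and -8.12, -7.56 and -5.46 on the control arrays. The other Cxcl10 probe was well above background on 0 arrays, so the 6 samples give no comparison for this gene. The other 42 members were well above background on at least 2 arrays of each group, and 39 of them on all 6.

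By array, the median of the 42 members relative to the control mean was -0.14, -0.28 and -0.13 on the arrays labelled cKO, and -0.02, -0.07 and 0.05 on the control arrays. The 3 cKO medians lay below the 3 control medians, with cKO array 2 lowest. Class I medians were -0.09, -0.36 and -0.31 on the arrays labelled cKO, against -0.02, -0.10 and 0.14 on the control arrays, and cKO array 1 lay above control array 2. On the 2 slide rows the members' median difference was -0.24 (row 1) and -0.09 (row 2).

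**Figure D4:**
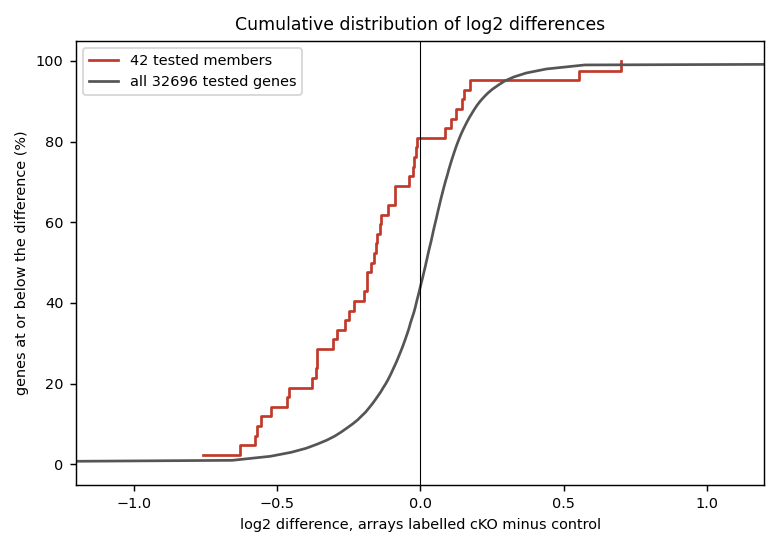
Cumulative share of genes (y axis, percent) at or below each log2 difference (x axis, arrays labelled cKO minus control) for the 42 tested members and all 32696 tested genes. The members' line lies left of the other over most of its length, with medians of -0.17 and 0.02.

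Members with and without an ISRE match were set side by side. The 15 tested members with a match had a median difference of -0.17 and 11 were lower, and the 21 tested members without one had a median of -0.16 and 18 were lower. Of the 9 members found in the table that were lower at an unadjusted p under 0.05, 3 held a match (Irgm1, B2m and Ifit3, shown above), as did 13 of the 28 others. No match says only that these letters are not in the 250 bases searched.

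Other genes of the pathway were counted in lists that were not picked for how they moved here, although earlier results of these data were known. The shares over all genes, for this and the following lists, are 4.34% lower and 3.21% higher at an unadjusted p under 0.05, and 44% lower by sign. Among 54 further interferon-induced genes, 50 were tested, 0 passed after adjustment, 12 were lower and 1 was higher at an unadjusted p under 0.05, and the median was -0.12. Parp14, an ADP-ribosyltransferase, differed by -0.68 (adjusted p = 0.118), Ifi27l2a by -0.93 (adjusted p = 0.236) and the guanylate-binding Gbp6 by -0.64 (adjusted p = 0.328). Trim30a, counted among the 12, was well above background on 0 arrays labelled cKO and 3 control arrays. It passed the filter only through the control arrays, so the filter favoured its direction, which is not read as a result. The list was lower by sign in 31 of 50 genes, and its median was -0.06 without cKO array 2.

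Interferon ligands, their other receptors and signalling genes numbered 19 tested of 20, with 2 lower and 1 higher at an unadjusted p under 0.05 and a median of -0.04. Irf8, a factor of the myeloid lineage, had -1.39, -1.84 and -2.35 on the arrays labelled cKO, against -1.12, -0.99 and -1.12 on the control arrays (difference -0.78, adjusted p = 0.418). Irf5, also expressed mainly in myeloid cells, differed by -0.58 and the kinase Jak2 by 0.33.

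Of 18 tested genes for nucleic acid sensing (of 19), 3 were lower and 0 higher at an unadjusted p under 0.05, with a median of -0.04. Sting1, the adaptor downstream of the DNA sensor Cgas, differed by -0.42 (adjusted p = 0.314), Mavs, the adaptor of both sensors above, by -0.30 (adjusted p = 0.372), and Unc93b1, a chaperone of endosomal Toll-like receptors, by -0.36 (adjusted p = 0.498). Mavs had -1.54, -1.55 and -1.54 on the arrays labelled cKO, against -1.18, -1.29 and -1.24 on the control arrays, without overlap.

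Further class I genes numbered 24 tested of 27, with 4 lower and 0 higher at an unadjusted p under 0.05 and a median of -0.12. The 4 were Hfe (-0.44), the class I-like regulator of iron uptake, Erap1 (-0.68), which trims peptides, and the class I-like Mr1 (-0.34) and H2-M3 (-0.30). The 7 constitutive proteasome beta subunits had a median of 0.06 with 0 at an unadjusted p under 0.05, beside the -0.36 of Psmb8 and of Psmb9. Psmb10, another immunoproteasome subunit, is listed with the further class I genes and was not among the 4. MHC class II, which is limited to antigen-presenting cells, had a median of -0.10 over 9 genes with 0 at that p.

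Marker lists of other cell types were read beside these values, with the same shares over all genes: 4.34% lower and 3.21% higher at an unadjusted p under 0.05. The 16 microglia markers were lower by sign in 16 of 16, 12 of them at an unadjusted p under 0.05, with a median difference of -0.57. Their medians by array were -0.27, -0.60 and -0.91 on the arrays labelled cKO, against 0.03, 0.03 and 0.01 on the control arrays, and their summed linear level ran from 228 to 253 on the arrays labelled cKO and from 248 to 292 on the control arrays. Cx3cr1, the microglial fractalkine receptor, differed by -0.82 (adjusted p = 0.277), C1qb by -0.58 and Tyrobp by -0.78. Microglia markers were lowest on cKO array 3, and the members on cKO array 2. Ranks of 3 arrays hold little information, and the part of microglia in the members' differences was not tested.

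The 14 astrocyte markers were lower by sign in 14 of 14, 13 at an unadjusted p under 0.05, with a median of -0.48 and a summed level of 116 to 137 on the arrays labelled cKO and 164 to 192 on the control arrays. Oligodendrocyte-lineage markers had 7 of 13 lower at that p (median -0.29), with a summed level of 124 to 145 on the arrays labelled cKO and 153 to 188 on the control arrays. Pericyte and smooth-muscle markers had 3 of 9 lower (median -0.23), with 11.4 to 14.3 on the arrays labelled cKO and 14.7 to 17.5 on the control arrays. Interneuron markers had 2 of 8 lower (median -0.32), with 56.8 to 69.4 on the arrays labelled cKO and 72.8 to 74.2 on the control arrays. The part of these lists in the members' differences was not tested.

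The 14 endothelial markers had 0 at that p and a median of -0.10. Border macrophage markers had 1 of 6 lower (median -0.38) and meningeal fibroblast markers 0 of 9 (median -0.35), and both lists were lowest on cKO array 2, with medians of -0.88 and -1.16 there. Their summed levels were 1.34 to 2.54 on the arrays labelled cKO against 2.11 to 3.20 on the control arrays for border macrophages, and 15.1 to 38.8 against 26.0 to 37.7 for meningeal fibroblasts. The members were also lowest on cKO array 2, and without that array their median was -0.10, against 0.04 for all genes. The part of meningeal tissue in this was not tested. Lymphocyte markers had 1 lower and 1 higher of 10 tested (median 0.07), and Cd3g, a T cell receptor chain, was well above background on at most 1 array. Granulocyte markers had 2 higher and 0 lower of 5 tested of 8 (median 0.43). Choroid plexus and ependyma markers had 0 of 6 at that p (median -0.37) and erythroid markers 0 of 4 tested (median 0.37).

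**Figure D5:**
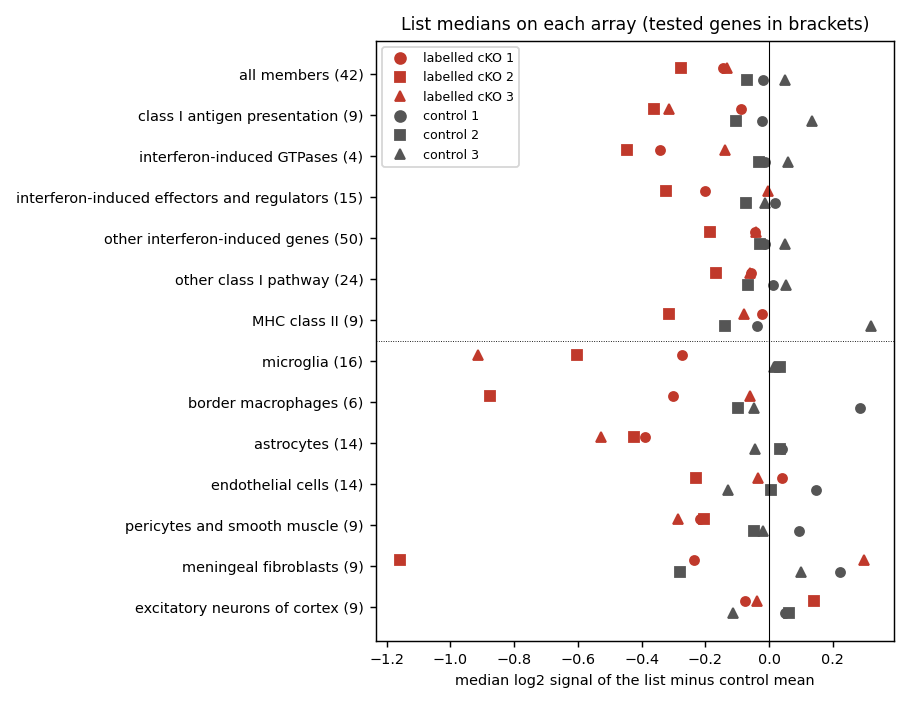
Median log2 signal of each list on each array minus the mean of the control arrays (x axis), for member and pathway lists above the dotted line and cell type marker lists below it, with the number of tested genes in brackets. On the 3 arrays labelled cKO, microglia medians lie between -0.91 and -0.27, astrocyte medians between -0.53 and -0.39, and the medians of all 42 members between -0.28 and -0.13.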

How the data were processed

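The deposited scanner files hold fluorescence intensity values of 1-colour (Cy3) Agilent mouse arrays. Per the file headers they come from Feature Extraction 10.5.1.1 and hold processed signals, corrected for background and not normalized between arrays. The deposited series matrix holds log2 values made by steps the sources do not describe. Of its values, 95% lie within 0.00197 of quantile-normalized, median-centred log2 processed signals, so scale and centring are inferred and the direction stays that of the arrays. Its column medians lie between -0.0064 and 0.00645, and it served as an alternative.

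From the scanner files, log2 processed signal minus each array's 75th percentile was used. Control spots were dropped, as were 112 to 198 outlier-flagged spots on each array, and repeated spots were averaged. Probes well above background on at least 3 of 6 arrays were tested, with the brightest probe per gene. The number of arrays limits the precision. Gene names were updated through a RefSeq table of GRCm38.p6 (28331 probes by accession, 417 by another accession, 2037 by symbol and 163 by synonym; 24733 kept the file's name). Groups were compared with limma 3.58.1 (R 4.3.3; lmFit and eBayes, two-sided, Benjamini-Hochberg over all tested genes), a script also tested on simulated data. Intervals are 95%.

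The members and lists were chosen with earlier results of these data known. All 43 members are named, with up to 4 genes of each pathway list and up to 3 markers of each marker list by smallest p; any other gene was named for its role after its value was seen. Alternatives (21) covered normalization, normexp background correction (offset 50), filters, probe summary, variance model, array weights, the replicate block, slide row, Y-linked signal, the deposited matrix and each array left out. The replicate numbers of the 2 groups were not taken to pair samples. A slide or scan block was not fitted because all arrays share 1 slide. Slide column was not fitted either, although it is partly confounded with group: cKO arrays 2 and 3 alone lay in column 2.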

Additional observations from a re-analysis of the deposited data

How the results depend on the processing

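Under all 21 alternatives 0 members passed the adjusted threshold, as with the reported processing. The count of members with an unadjusted p under 0.05, 12 as reported, was 3 with a term for Y-linked signal. In that fit 2.04% of all genes were lower at that p, against 4.34% as reported, and the members' median was -0.19. The median is the same without the arrays that carry such signal. Both fits set the arrays labelled cKO against control array 2 alone, so this sameness is by construction. The count lay between 7 and 16 when each array was left out in turn. The members' median difference, -0.17 as reported, was -0.10 with normexp background correction scaled to the 75th percentile, which compresses dim probes. It lay between -0.21 and -0.10 with each array left out, and was nearest 0 without cKO array 2. Fitted with the replicate block, 12 members had an unadjusted p under 0.05 and 0 passed after adjustment (lowest adjusted p 0.526). Same-numbered arrays correlated at -0.20, 0.08 and 0.17 in their deviations from the group means, so the numbers were not read as pairs. The count of all genes passing, 2 as reported, was 12 with quantile normalization, 24 with median centring, 76 and 75 with normexp correction, 106 with an intensity trend and robust variances, 224 with array weights, 9 with a slide-row term and 11 with the stricter filter. It was 0 with the replicate block, with no filter on dim probes and with the Y-linked term, and between 0 and 4 with arrays left out. The cause of these changes was not tested. Mx1, Ifi44 and Ifit1 lie near background, which limits their precision.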
